A study of Mus musculus with 55 samples.

Results

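The 10 genes described here are early lymphoid priming genes: Il7r, Flt3, Rag1, Rag2, Dntt, Ikzf1, Ikzf2, Ikzf3, Notch1 and Bcl11a. They were chosen by symbol, and each has 1 of the 55421 rows of the first count table and 1 of the 35972 usable rows of the second. The study compared bone marrow stem and progenitor cells of WT and Tet2-/- mice by bulk RNA-seq, with 200 sorted cells per library by the sample labels and about 300 per group by the methods, and then LT-HSCs of WT mice, of Sting-/- mice and of mice lacking both genes (DKO). The first table holds 46 libraries of 6 populations, which are long-term (LT-HSC) and short-term (ST-HSC) hematopoietic stem cells and the progenitors called common lymphoid (CLP), common myeloid (CMP), megakaryocyte-erythroid (MEP) and granulocyte-macrophage (GMP). Every genotype has 4 libraries per population, except 3 of WT LT-HSC and 3 of WT ST-HSC. The second table holds 9 LT-HSC libraries, 3 per genotype. By the methods, Tet2-/- mice carried floxed Tet2 alleles (Tet2 f/f) and Mx1-Cre, a Cre driven by an interferon-inducible promoter and switched on with poly(I:C) at 4 weeks of age, and for the first table marrow was taken 16 weeks after induction. Sting-/- mice came as a knockout line, DKO mice carried that Sting knockout with the floxed Tet2 alleles and Mx1-Cre, and all mice were on the C57BL/6 background. The kind of Sting allele is not given in the sources used here. Mx1-Cre also acts in cells outside the marrow, and the poly(I:C) treatment of each WT group and the age of the mice of the second table are not given in the sources used here.

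Lymphoid priming is the low expression of lymphoid genes in multipotent cells before they commit to a lineage. The receptor tyrosine kinase FLT3 marks that stage, and the IL-7 receptor carries the later survival signal of lymphoid progenitors. RAG1 and RAG2 together cut DNA in V(D)J recombination of antigen receptor genes, and terminal deoxynucleotidyl transferase, the product of Dntt, adds bases to the joints. Ikaros (Ikzf1), Helios (Ikzf2) and Aiolos (Ikzf3) are zinc finger factors of 1 family, NOTCH1 is the receptor that commits progenitors to the T cell lineage, and BCL11A is a zinc finger repressor needed for B cell development that also silences fetal globin genes in the erythroid lineage.

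Among WT populations the members fell into distinct patterns. Il7r and Ikzf3 were found in CLPs and were close to 0 elsewhere. In counts scaled to library size (CPM), Dntt was at 384 to 662 in 3 of 4 CLP libraries and at 14.9 to 116.8 in ST-HSCs and CMPs, Flt3 ran from ST-HSCs to CMPs, GMPs and CLPs, and Bcl11a was lowest in CLPs. No member was called between the libraries labelled Tet2-/- and WT within any of the 6 populations. In CLPs, however, Bcl11a did not overlap between genotypes, Rag1 was at 0 in WT and over 3 counts in 3 of 4 labelled Tet2-/- libraries, and the genotype effect on Bcl11a in CLPs differed from that in the other 5 populations (log2 difference 2.04, SE 0.478, edgeR adjusted p = 0.00639). In that test 5.38% of 22360 genes were called. In the fit of CLPs alone Bcl11a was not called (SE 0.961). The share of all genes without overlap between genotypes is not given here.

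Promoter windows are printed for Il7r and Dntt, which reached their highest levels in CLPs. Those of Rag1, which had no count in WT CLPs, and Bcl11a, which did not overlap between genotypes in CLPs, are printed as well. They run from 250 bases before to 50 bases after a RefSeq start site on GRCm38.p6, the build also called mm10, 5′ to 3′ on the strand of the gene. Il7r lies at chr15:9529827-9530126 on the minus strand, Rag1 at chr2:101649483-101649782 on the minus strand, Dntt at chr19:41029025-41029324 on the plus strand and Bcl11a at chr11:24080445-24080744 on the plus strand. Capitals mark matches on either strand to TGGGAA (Ikaros), CAGGTG (an E-box bound by E proteins), GAGGAA (ETS factors and PU.1) or TGTGGT (RUNX).
Il7r: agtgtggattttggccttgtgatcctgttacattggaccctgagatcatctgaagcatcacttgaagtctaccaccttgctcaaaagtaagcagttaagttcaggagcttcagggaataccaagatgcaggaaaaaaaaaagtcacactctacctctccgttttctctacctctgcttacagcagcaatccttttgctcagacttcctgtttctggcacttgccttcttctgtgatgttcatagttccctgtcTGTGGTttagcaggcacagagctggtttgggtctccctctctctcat
Rag1: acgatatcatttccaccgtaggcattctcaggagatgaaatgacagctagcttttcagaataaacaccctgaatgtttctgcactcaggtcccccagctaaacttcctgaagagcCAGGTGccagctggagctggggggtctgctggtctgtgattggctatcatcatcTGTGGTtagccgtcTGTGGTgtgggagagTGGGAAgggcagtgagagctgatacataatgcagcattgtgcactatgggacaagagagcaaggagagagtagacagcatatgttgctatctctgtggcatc
Dntt: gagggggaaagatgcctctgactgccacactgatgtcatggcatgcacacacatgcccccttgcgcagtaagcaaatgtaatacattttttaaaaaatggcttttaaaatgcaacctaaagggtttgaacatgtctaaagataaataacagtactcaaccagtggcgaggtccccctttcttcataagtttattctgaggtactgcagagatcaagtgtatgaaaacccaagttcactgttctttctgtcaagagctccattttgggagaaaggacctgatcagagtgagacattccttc
Bcl11a: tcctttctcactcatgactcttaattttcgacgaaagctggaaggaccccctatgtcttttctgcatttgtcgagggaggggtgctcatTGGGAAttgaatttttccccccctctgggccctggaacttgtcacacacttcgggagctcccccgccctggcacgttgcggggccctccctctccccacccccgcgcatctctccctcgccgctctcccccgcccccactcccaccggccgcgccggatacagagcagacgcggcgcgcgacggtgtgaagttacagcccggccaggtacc
The Rag1 window held 4 matches, 1 to the Ikaros letters, 1 to the E-box and 2 to the RUNX letters, Il7r held 1 RUNX match and Bcl11a 1 Ikaros match. The Dntt window held none of these letters. Of 32851 promoter windows of the same length, 25.6% held the Ikaros letters, 20.2% the E-box, 28.3% the ETS letters and 16.8% the RUNX letters. RefSeq windows were found for 8 of the 10 members, all but Ikzf2 and Ikzf3, in 9 windows since Ikzf1 has 2. In the others, Rag2 and Notch1 held 1 ETS match each, and the Flt3 and Ikzf1 windows held none. These matches are descriptions of the letters.

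On mm10 (GENCODE vM21), Il7r spans chr15:9505788-9530176, Flt3 chr5:147330741-147400489, Dntt chr19:41029275-41059525, Notch1 chr2:26457903-26516663 and Bcl11a chr11:24078056-24174123. Rag1 (chr2:101638282-101649501) and Rag2 (chr2:101624718-101632529) are neighbours on opposite strands. Ikzf1 spans chr11:11685003-11772926, Ikzf3 chr11:98464902-98546031 and Ikzf2 chr1:69531214-69687245. All are protein coding. Exons of another gene, B230118H07Rik, share 80 bases with Rag1 and 208 with Rag2. Antisense or other transcripts share 144 bases with Ikzf2 (Gm29114), 1068 and 414 with Notch1 (0610009E02Rik and Gm13568) and 316 with Bcl11a (4930538E20Rik). Whether the counting used strand is not given in the sources used here, so reads in those bases may belong to either gene.

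Total counts per library ran from 50458473 to 102148079 in the first table and from 26775681 to 78680486 in the second. Tet2 itself was at 6.05 to 72.5 CPM in the libraries labelled Tet2-/- and at 2.33 to 41.2 CPM in WT, and its levels overlapped between genotypes in every population. Its mean was lower in the labelled Tet2-/- libraries in ST-HSCs (18.7 against 22.6 CPM), CMPs (16.2 against 20.7) and MEPs (11.0 against 12.3), and higher in the other 3 populations. A count over the whole gene does not show whether the floxed part was deleted, so the term "labelled Tet2-/-" is kept below. Separate mice are not named for each library in the labels, so p-values measure the spread between these libraries. In these bulk libraries, fewer cells of a type and less RNA per cell cannot be told apart.

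The label CLP was checked against marker lists. All 8 CLP libraries held Il7r, the gene of CD127 that was part of the sorting gate (Lin- cKit+ Sca1int CD127+), along with Kit and Ly6a. The lineage cocktail (Lin) that the methods list for the stem cell stain held antibodies to Ter119, Gr1, B220, CD4, CD5 and CD8. The same libraries held genes of later lymphoid cells. The 12 B cell markers took 10.4% to 15.96% of all counts in the 4 WT CLP libraries and 0.107% to 9.91% in those labelled Tet2-/-. Nearly all of this came from the immunoglobulin heavy chain gene Ighm, except in the library at 0.107%, labelled Tet2-/- replicate 2. Pax5, Vpreb1 and Igll1 stayed under 1 CPM in every WT CLP library. Outside CLPs, the summed B cell markers of WT libraries had group medians of 15.4 CPM in MEPs to 197.3 CPM in CMPs, against 220300 CPM in CLPs. The 7 plasma cell markers, a list added after the values were seen, took 1.12% to 5.49% of counts in WT CLPs and 0.0218% to 3.62% in labelled Tet2-/- CLPs. The 10 T and NK cell markers took 0.0134% to 0.0668% and 0.0394% to 0.257%, with Cd3e and Cd8a under 1 CPM in all 8 libraries and the NK receptor gene Ncr1 at 56.2 to 1453 CPM. The B cell sums did not overlap between the genotypes of CLPs, and their part in the results on CLPs was not tested.

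Among CLP libraries, 2 stood apart. WT replicate 4 had Flt3 at 0, Rag2 at 0, Dntt at 0.879, Notch1 at 3.20 and Bcl11a at 0.377 CPM, beside Il7r at 649.4 and Ikzf3 at 297.8 CPM. Labelled Tet2-/- replicate 2 had Ighm at 583 CPM, of a B cell marker sum of 1015 CPM. The other 7 CLP libraries had Ighm at 37990 to 276900 CPM. Replicate 2 also had Ncr1 at 1453 CPM and the highest Il7r of all libraries. Where a call or a value changes, results on CLPs are also given without these 2 libraries, singly or together, or as a range over the alternatives.

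**Figure D1:**
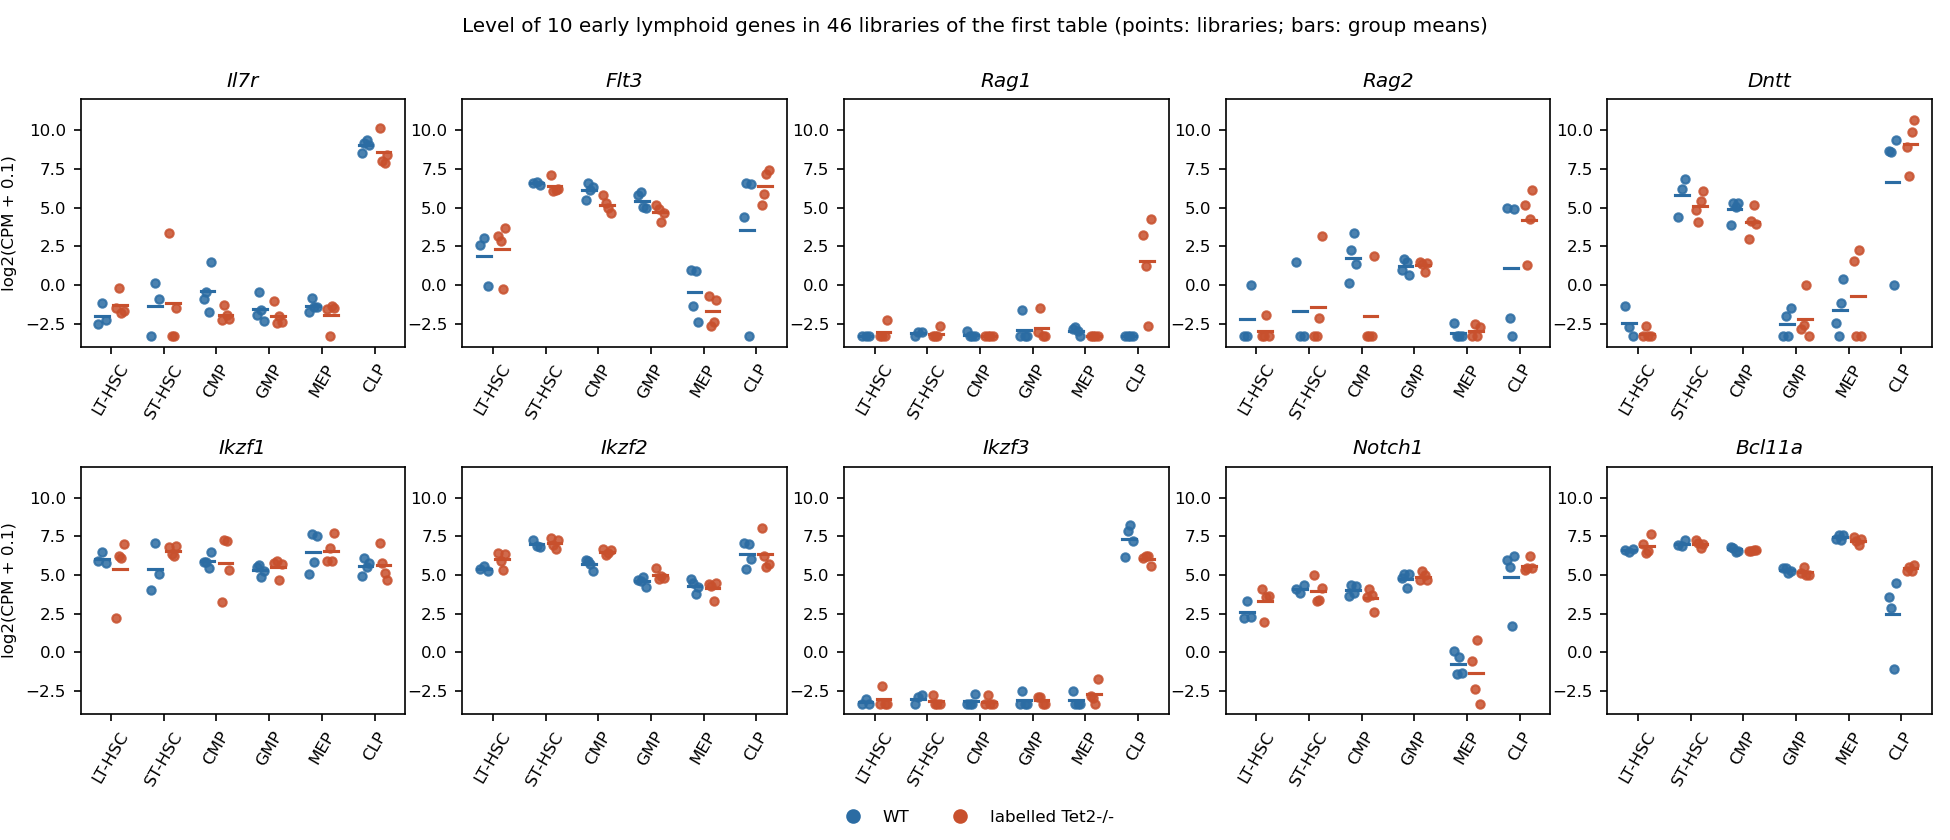
Level of each of the 10 genes in each of the 46 libraries of the first table, on the y axis as log2 of CPM plus 0.1, for the 6 sorted populations on the x axis. Points are libraries, blue for WT and red for labelled Tet2-/-, and bars are means of the plotted values; the 8 CLP libraries hold Il7r at 230.8 to 1119 CPM, the other 38 at up to 10.3 CPM, and Bcl11a is lowest in WT CLPs.

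The cytokine receptors are given first. Il7r, the gate gene of CLPs, is given as a description with no test. Its level in WT CLPs was 371, 572, 649 and 528 CPM, and in labelled Tet2-/- CLPs 1119, 256, 231 and 340 CPM. In the 38 libraries of the other 5 populations it ran from 0 to 10.3 CPM with a median of 0.235. The highest of these was 1 labelled Tet2-/- ST-HSC library, replicate 2, at 823 counts, whereas the other 3 libraries of that group had 0 to 23 counts. Outside CLPs, the WT ranges of Il7r overlapped at each step of the order CMP, ST-HSC, MEP, GMP and LT-HSC.

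Flt3 was not part of the CLP gate. In WT it was at 98.4, 101 and 89.6 CPM in ST-HSCs, at 44.7, 97.5, 69.2 and 79.2 in CMPs, and at 55.0, 64.6, 32.2 and 30.8 in GMPs. LT-HSCs held 5.85, 8.14 and 0.837 CPM and MEPs 0.0874 to 1.88 CPM. Thus Flt3 in ST-HSCs lay above every LT-HSC library, and GMPs were above LT-HSCs without overlap, while ST-HSCs, CMPs, CLPs and GMPs overlapped at each step. WT CLPs ranged from 0 in replicate 4 to 97.0 CPM in replicate 3, with 21.3 and 91.0 CPM in the other two.

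In the fit of the 22 WT libraries, Flt3 passed the thresholds (adjusted p of 0.05 and 2-fold) in CLPs against MEPs (log2 fold change 5.75, SE 1.32, edgeR adjusted p = 0.00219). Against LT-HSCs its log2 fold change of 3.41 had an edgeR adjusted p of 0.0595. It passed in 4 of 13 alternatives, without WT CLP replicate 4 (3.81, adjusted p = 0.00367) or 2 (3.68, adjusted p = 0.0494), with DESeq2 and in the fit of all 46 libraries, and the adjusted p ranged from 0.00367 to 0.170. Between LT-HSCs and ST-HSCs the difference was -4.30 with an edgeR adjusted p of 0.382, and DESeq2 gave an adjusted p of 0.0125 (range over the 11 alternatives 0.0125 to 0.669).

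The recombination genes differed in where they were found. Dntt in WT CLPs was at 408, 384, 0.879 and 662 CPM, which separates replicate 4 from the rest. ST-HSCs held 20.5, 72.3 and 116.8 CPM and CMPs 14.9, 39.5, 33.2 and 39.6 CPM, whereas WT LT-HSCs held at most 16 counts and WT GMPs at most 20 counts in any library. Dntt was therefore above its LT-HSC and GMP levels in every ST-HSC and CMP library. In CLPs it was called higher than in LT-HSCs (edgeR adjusted p = 0.000384), GMPs (adjusted p = 0.000145) and MEPs (adjusted p = 0.000178), groups in which WT libraries had at most 82 counts, so no fold is given. Against CMPs its log2 fold change was 3.50 (edgeR adjusted p = 0.0542). It passed without WT CLP replicate 4 (3.90, adjusted p = 0.00809), with RLE scaling (3.69, adjusted p = 0.0454) and with DESeq2 (adjusted p = 0.0427), with a range of 0.00809 to 0.123 over 14 alternatives. Against ST-HSCs it was 2.36 (edgeR adjusted p = 0.206).

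Dntt in ST-HSCs against LT-HSCs did not pass the edgeR threshold (adjusted p = 0.0723), although the 2 groups did not overlap. DESeq2 gave an adjusted p of 6.56e-06 for it, and the adjusted p ranged from 6.56e-06 to 0.292 over 11 alternatives.

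Rag1 and Rag2 went separate ways. Rag1 had no count in any of the 4 WT CLP libraries, which allows up to 3 counts, or 0.0724 CPM on average, per library. Over all 46 libraries, 38 had at most 3 counts of Rag1, and outside CLPs it reached at most 17 counts. In labelled Tet2-/- CLPs Rag1 was at 719, 169, 3 and 1301 counts, or 9.37, 2.20, 0.0593 and 19.3 CPM, so 3 of 4 libraries were above every other library of the table. Too few libraries held counts for the edgeR filter, and in the fit of CLPs Rag1 was not tested.

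Rag2 was at 31.9, 0.125, 0 and 29.7 CPM in WT CLPs and at 35.3, 2.35, 18.9 and 70.3 CPM in labelled Tet2-/- CLPs. All 8 GMP libraries held it at a low level, 1.49 to 3.12 CPM or 114 to 282 counts, while 6 of these 8 had at most 3 counts of Rag1. WT CMPs held 0.975, 4.67, 9.96 and 2.47 CPM, and in labelled Tet2-/- CMPs 3 libraries were at 0 and the last at 3.53 CPM. Rag2 thus spread more between libraries of 1 group in CMPs and CLPs than in GMPs. It was called between CLPs and MEPs (edgeR adjusted p = 0.0143), where MEPs had at most 4 counts in WT. Against LT-HSCs Rag2 had an edgeR adjusted p of 0.118, and it was called without WT LT-HSC replicate 5 (adjusted p = 0.0446), the 1 WT LT-HSC library that held it, or with DESeq2 (adjusted p = 0.0323, range over 13 alternatives 0.0323 to 0.249). Against ST-HSCs (adjusted p = 0.236) it was called without WT ST-HSC replicate 2 (adjusted p = 0.0342, range over 13 alternatives 0.0342 to 0.411), again the 1 library of that group with counts.

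The gene that shares exon bases with both, B230118H07Rik, was at 0 to 18.7 CPM in WT CLPs, at 18.5 to 42 CPM in labelled Tet2-/- CLPs and at 26.3 to 107.4 CPM elsewhere. Rag1 was at 0 in 27 of 38 libraries outside CLPs, where that neighbour was expressed. The part of the shared bases in the Rag2 counts was not tested.

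The 3 Ikaros family members had 3 different distributions. Ikzf1 was detected in all 46 libraries, from 4.45 to 211.3 CPM with a median of 56.5. Its spread within a group was wide, as in WT ST-HSCs with 16.02, 133.3 and 33.0 CPM and in labelled Tet2-/- CMPs with 9.38, 150.5, 142.8 and 40.5 CPM. The WT ranges of Ikzf1 overlapped at every step from MEPs (117.2 ± 84.9 CPM, SD, n = 4) down to GMPs (40.5 ± 9.11 CPM, SD, n = 4), and no WT population contrast tested was called for it. Without WT MEP replicate 2 it was called lower in CLPs than in MEPs (log2 fold change -1.51, edgeR adjusted p = 0.0417, against 0.103 with all libraries).

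Ikzf2 was highest in WT ST-HSCs at 151.9, 118.8 and 112.9 CPM. It was at 40.9, 48.6 and 37.5 CPM in LT-HSCs, at 63.5, 59.9, 51.3 and 38.8 in CMPs, at 18.5 to 28.7 in GMPs and at 13.2 to 26.6 in MEPs. ST-HSCs were above all LT-HSC, CMP, GMP and MEP libraries of WT, and the ranges of GMPs and MEPs overlapped. WT CLPs split into 132.2 and 130.1 CPM in replicates 2 and 4 and 42.3 and 66.0 CPM in replicates 3 and 5.

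Ikzf2 was called lower in CMPs than in ST-HSCs (log2 fold change -1.27, edgeR adjusted p = 0.0198). That call was lost without WT ST-HSC replicate 2 (adjusted p = 0.0995) and without WT CMP replicate 4 (0.0611) or 5 (0.0810), and in the fit of all 46 libraries (0.0748). Ikzf2 in CLPs was called higher than in GMPs (log2 fold change 1.89, adjusted p = 0.000157) and MEPs (2.24, adjusted p = 1.17e-05). Its call against LT-HSCs (1.12, adjusted p = 0.0145) was lost without WT CLP replicate 2 or 4 (log2 fold changes 0.91 and 0.89) and without WT LT-HSC replicate 2 or 5 (edgeR adjusted p of 0.0514 and 0.0610), and over the 13 alternatives the adjusted p ranged from 0.000681 to 0.0610. Between LT-HSCs and ST-HSCs the difference of -1.62 had an edgeR adjusted p of 0.0733, and DESeq2 gave 0.000313 (range over 11 alternatives 0.000313 to 0.318).

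Ikzf3 was at 71.2, 225.2, 297.8 and 143.3 CPM in WT CLPs and at 67.8, 75.5, 74.9 and 47.5 CPM in labelled Tet2-/- CLPs. In the 38 other libraries it had at most 16 counts, and 24 of them had none. CLPs were above all others in every library. In the fit of WT libraries Ikzf3 passed the low-count filter only through the CLP libraries, so its level there is a description with no test. Ikzf3 is also expressed in mature B and plasma cells, and in the 4 WT CLP libraries the plasma cell markers took 1.12%, 4.10%, 5.49% and 2.97% of counts, in the same sequence of replicates as the Ikzf3 values. In the labelled Tet2-/- CLP libraries they took 0.0218%, 0.884%, 3.33% and 3.62%, with replicates in sequence. Their part in the level of Ikzf3 was not tested.

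Notch1 in WT was at 62.2, 45.1, 3.20 and 76.2 CPM in CLPs, at 28.0, 33.1, 17.4 and 33.3 in GMPs, at 16.6, 14.2 and 20.4 in ST-HSCs and at 12.2 to 20.6 in CMPs. LT-HSCs held 4.45, 9.67 and 4.73 CPM and MEPs 0.272 to 0.940 CPM. LT-HSCs were below every CMP library and above every MEP library, whereas CLPs, GMPs, ST-HSCs and CMPs overlapped. Notch1 was called higher in CLPs than in LT-HSCs (log2 fold change 2.89, edgeR adjusted p = 0.00507) and MEPs (6.43, adjusted p = 1.81e-06). Against ST-HSCs and CMPs it was called only without WT CLP replicate 4 (adjusted p = 0.00605 and 0.00322) or with DESeq2 (0.0413 and 0.0186), with edgeR adjusted p of 0.115 and 0.0846 over all libraries and ranges over the alternatives of 0.00605 to 0.259 and 0.00322 to 0.198.

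Bcl11a was highest in MEPs and lowest in CLPs. WT MEPs held 161.4, 194.5, 150.3 and 193.6 CPM, ST-HSCs 123.2, 115.0 and 154.9, CMPs 89.9 to 111.5, LT-HSCs 88.4 to 102.3 and GMPs 34.1 to 44.1 CPM. WT CLPs were at 11.7, 7.29, 0.377 and 22.7 CPM, below every library of the other 5 populations. CMPs and LT-HSCs overlapped, as did MEPs and ST-HSCs, and the other neighbours did not. Bcl11a was called lower in CLPs against every other WT population, by a log2 fold change of -1.95 against GMPs (edgeR adjusted p = 0.0185) to -4.02 against MEPs (adjusted p = 4.71e-05), and kept its call in the alternatives run (highest adjusted p 0.0493, against GMPs).

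Counted over the list, 6 of 9 tested members were called in CLPs against LT-HSCs, 5 higher and 1 lower, where 26.0% of the 20006 genes tested were called. Against ST-HSCs 3 of 9 were called (24.5% of all genes), against CMPs 3 of 9 (20.3%), against GMPs 5 of 9 (19.9%) and against MEPs 8 of 9 (30.5%). These counts include Il7r, which the sort selected, and Ikzf3, which passed the filter only through CLPs. Without both they were 4, 1, 1, 3 and 6 of 7, in the same order, and the only member then called against ST-HSCs or CMPs was Bcl11a, which was lower. Without WT CLP replicate 4, 5 members were called against CMPs and 4 against ST-HSCs. For LT-HSCs against ST-HSCs none of 9 was called by edgeR (0.175% of all genes), with 3 at an unadjusted p under 0.05 (1771 of 20006 genes). DESeq2 called 3, Flt3, Dntt and Ikzf2. For CMPs against ST-HSCs 1 of 9 was called (5.0%). Without both, the median log2 fold change of the tested members in CLPs was 2.89 against LT-HSCs and -0.29 against ST-HSCs, beside -0.11 and -0.10 over all genes. Rag1 was filtered out of these contrasts. With RLE in place of TMM scaling, the median of all genes moved from -0.26 to -0.04 against CMPs and from -0.36 to -0.12 against GMPs, and the share of calls that were higher in CLPs moved from 36.2% to 46.7% and from 35.2% to 45.6%.

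**Figure D2:**
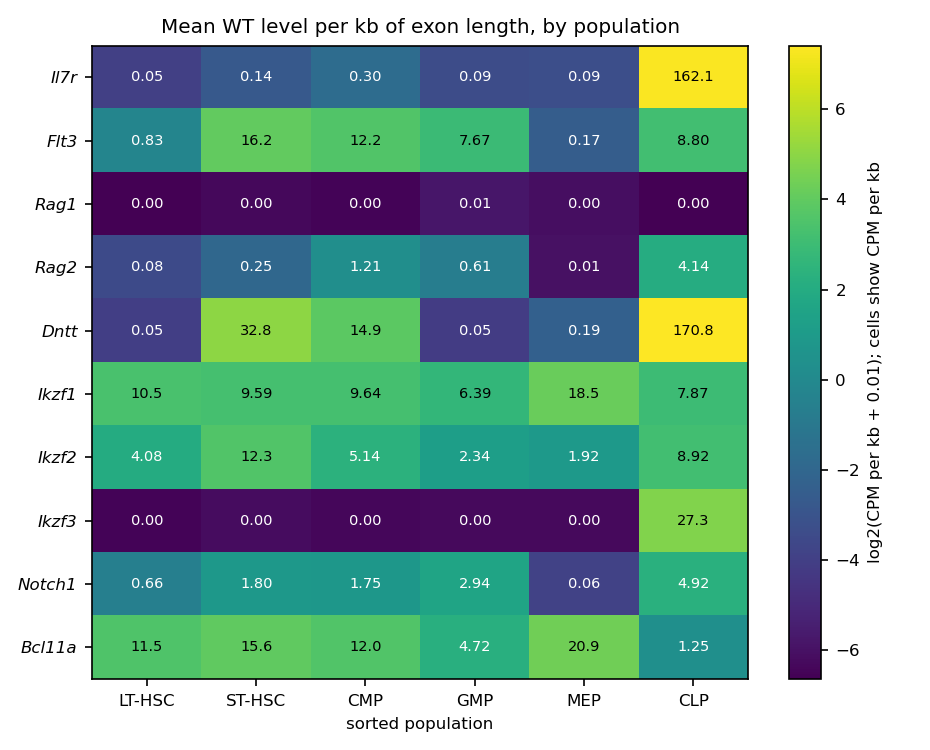
Mean WT level of each gene per kb of exon length, as log2 of CPM per kb plus 0.01 in colour and CPM per kb in the cells, for the 6 populations of the first table. Dntt (170.8 CPM per kb) and Il7r (162.1) are the highest members in CLPs, Dntt (32.8) in ST-HSCs, Dntt (14.9) in CMPs and Bcl11a (20.9) in MEPs.

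Per kb of exon length, so that genes can be compared, Dntt and Il7r were the highest members in WT CLPs at 170.8 and 162.1 CPM per kb, followed by Ikzf3 at 27.3, while Bcl11a was at 1.25. In ST-HSCs the order was Dntt (32.8 CPM per kb), Flt3 (16.2), Bcl11a (15.6), Ikzf2 (12.3) and Ikzf1 (9.59). In LT-HSCs Bcl11a (11.5 CPM per kb) and Ikzf1 (10.5) led, and Flt3 was at 0.83. These are group means over 3 or 4 libraries, and that of Dntt in CLPs includes replicate 4.

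The genes most like each member were taken as those with the highest Pearson correlation of mean log2 CPM over the 12 groups of the first table, among 11321 genes with a group mean of at least 10 CPM. For Il7r these were Tcrg-C2 (r = 0.994), Trbc1 (0.993) and Tuba3b (0.991), the first 2 being T cell receptor constant region genes. For Ikzf3 they were Tuba3b (0.997), Il2ra (0.997) and the immunoglobulin segment Ighv6-3 (0.997). For Flt3 they were Vim (0.962), Anxa2 (0.948) and Il12a (0.928), and for Notch1 Emb (0.989), Arid5b (0.986) and Fcer1g (0.981). For Dntt they were Tmsb10 (0.927), Gm3788 (0.894) and H2-Ob (0.879), and for Ikzf2 Il1r1 (0.948), Tgfbr2 (0.943) and H2-Ob (0.932). Bcl11a was most like Polr2h (0.981), Cep70 (0.979) and Pop7 (0.977), Rag2 most like Eif4e3 (0.936), Gmip (0.929) and Arrb2 (0.927), and Ikzf1 most like Ahctf1 (0.835). The groups share the libraries' depth and the sorted marrow, and these r are descriptions.

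The second question was whether the members differed between the libraries labelled Tet2-/- and WT. None was called in any population by edgeR, of 9 tested in CLPs (0.00766% of all genes called), 8 in CMPs (4.57%), 7 in each of GMPs (4.38%), MEPs (4.36%) and ST-HSCs (0.0185%), and 6 in LT-HSCs (0.0245%). At an unadjusted p under 0.05 there were 3 of 8 members in CMPs (3068 of 16047 genes), 1 of 7 in GMPs (2868 of 16563) and 1 of 9 in CLPs (477 of 13060). There were 0 in LT-HSCs (843 of 16351 genes), ST-HSCs (994 of 16212) and MEPs (2448 of 14934). DESeq2 called 0 members in each population. Of the 60 two-sided exact permutation tests of 1 member in 1 population, 3 were below 0.05, for Ikzf2 in CMPs and for Rag1 and Bcl11a in CLPs, each at 0.0286, the smallest that 4 against 4 libraries allow. The 20 tests in LT-HSCs and ST-HSCs, with 4 against 3 libraries, could not go below 0.0571, so 40 could reach 0.05. The value of Rag1 rests on 1 labelled Tet2-/- library at 3 counts, within the floor of the WT zeros, and with values of at most 3 counts set to 0 its exact permutation p was 0.143 and the other 2 were as before. These p are not adjusted for the number of tests. The share of all genes with such a p is not given here, so the count of 3 is only a description.

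**Figure D3:**
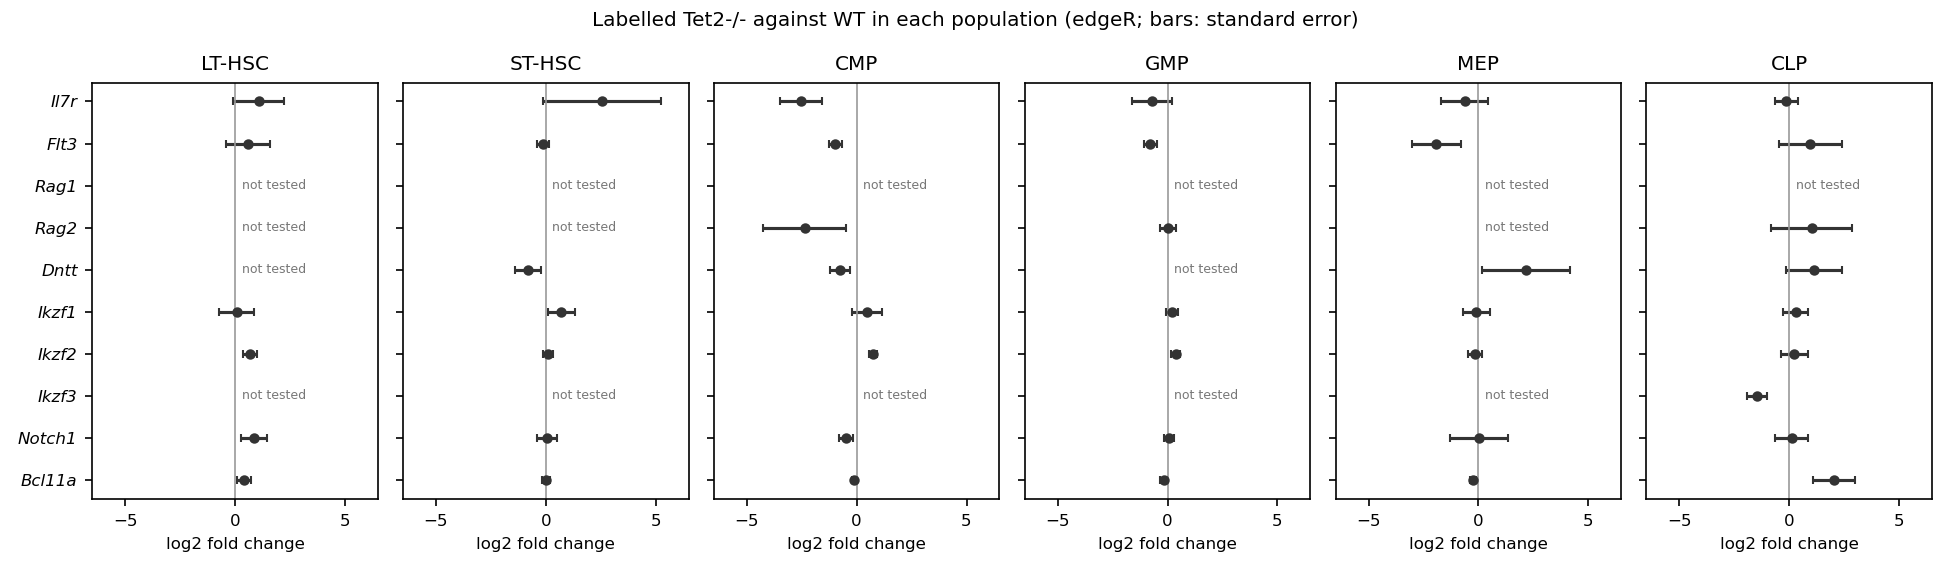
Log2 fold change of each gene in libraries labelled Tet2-/- against WT on the x axis, 1 panel per population, from the edgeR fit of that population. Bars are standard errors, genes too low for the filter are marked as not tested, and no value passed the thresholds; the fold change of Bcl11a in CLPs is 2.03 and that of Ikzf2 in CMPs 0.74.

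In CMPs, Flt3 was at 55.0, 39.8, 31.4 and 24.5 CPM in labelled Tet2-/- libraries against 44.7, 97.5, 69.2 and 79.2 CPM in WT. Only the highest labelled Tet2-/- library was above the lowest WT library. The log2 fold change was -0.97 (SE 0.292, edgeR adjusted p = 0.0900, exact permutation p = 0.0571). It passed the thresholds without WT replicate 2 (-1.14, adjusted p = 0.0475) and without labelled Tet2-/- replicate 2 (-1.20, adjusted p = 0.0485), and the adjusted p ranged from 0.00895 to 1.0 over the 13 alternatives. In GMPs the Flt3 log2 fold change was -0.79 (SE 0.288, edgeR adjusted p = 0.165).

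Ikzf2 in CMPs went the other way. The labelled Tet2-/- libraries were at 101.0, 76.3, 86.2 and 96.6 CPM against 63.5, 59.9, 51.3 and 38.8 CPM in WT. All 4 were above all 4 WT libraries, and the share of all genes that separated in this way in CMPs is not given here. The log2 fold change was 0.74 (SE 0.171, edgeR adjusted p = 0.0317), which passes the p threshold and is under 2-fold, so it was not called. The adjusted p ranged from 0.000835 to 0.521 over 13 alternatives.

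Rag2 in CMPs had a log2 fold change of -2.36 with an SE of 1.90 (edgeR adjusted p = 0.583) and was called without labelled Tet2-/- replicate 5 (adjusted p = 0.0147), the 1 library of that group in which it was found. Il7r in CMPs had -2.53 (SE 0.953, adjusted p = 0.176) at WT levels of 0.201 to 2.64 CPM. Dntt, Ikzf1, Notch1 and Bcl11a in CMPs had log2 fold changes between -0.76 and 0.48 with adjusted p of 0.439 to 0.783. In LT-HSCs the 6 tested members had log2 fold changes of 0.07 to 1.07, in ST-HSCs 7 had -0.81 to 2.55, in GMPs 7 had -0.79 to 0.37 and in MEPs 7 had -1.91 to 2.16. The median over tested members ran from -0.62 in CMPs over -0.15 in MEPs, 0.01 in GMPs and 0.05 in ST-HSCs to 0.64 in LT-HSCs, beside 0.03 to 0.06 over all genes.

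In CLPs, Bcl11a was at 38.7, 45.0, 38.8 and 49.1 CPM in the labelled Tet2-/- libraries against 11.7, 7.29, 0.377 and 22.7 CPM in WT. Every labelled Tet2-/- library was above every WT library, and the share of all genes that separated in this way in CLPs is not given here. The log2 fold change was 2.03 (SE 0.961, edgeR adjusted p = 1.0, exact permutation p = 0.0286). It was called in the fit of all 46 libraries with 1 shared spread (2.03, adjusted p = 0.00273), and the adjusted p ranged from 0.00273 to 1.0 over the 15 alternatives. Without the 2 CLP libraries that stood apart it was 1.68 (edgeR adjusted p = 0.967).

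In the model of all 46 libraries the effect of genotype on Bcl11a in CLPs differed from the mean effect in the other 5 populations by a log2 difference of 2.04 (SE 0.478, edgeR adjusted p = 0.00639). This was the 1 member of 10 called, where 5.38% of 22360 genes were called. Without the 2 CLP libraries that stood apart the difference was 1.69 (adjusted p = 0.000179), and it was called in all 14 alternatives (1.61 to 2.71, adjusted p 0.000179 to 0.0235). All of these share 1 estimate of the spread over the 46 libraries, whereas CLP libraries correlated with their own group at a mean r of 0.716 to 0.794 and the others at 0.878 to 0.952. In the fit of CLPs alone the SE was 0.961 and Bcl11a was not called, so the call depends on the shared spread. In the other 5 populations Bcl11a had log2 fold changes of -0.23 to 0.42 between genotypes. No member was called for the effects in LT-HSCs (0.139% of all genes called), ST-HSCs (0.0984%), CMPs (0.085%), GMPs (0.246%) or MEPs (0.514%), and DESeq2 called 0 there. At an unadjusted p under 0.05 there were 0, 1, 1, 0 and 0 members, against 1126, 1084, 869, 735 and 1188 of 22360 genes.

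Other cell type markers differed between the same CLP libraries. B cell markers took 10.4%, 15.96%, 13.1% and 12.8% of counts in WT and 0.107%, 4.16%, 9.91% and 9.63% in labelled Tet2-/-. The 8 granulocyte-macrophage markers took 0.226%, 0.0670%, 0.000254% and 0.00201% against 0.000295%, 1.36%, 0.179% and 0.317%. The 8 stem cell markers took 0.000141% to 0.00148% against 0.00105% to 0.00974%, and the 6 plasmacytoid dendritic cell markers 0.0607% to 0.0832% against 0.0141% to 0.0477%. The 9 erythroid and megakaryocyte markers took 0.00218%, 0.000498%, 0.00108% and 0.000582% in WT against 0.0000193%, 0.150%, 0.00355% and 0.0306%, so 3 of 4 labelled Tet2-/- libraries were above every WT library. B cell and plasmacytoid dendritic cell shares were lower in every labelled Tet2-/- library than in any WT library. Within the 12 genes of the B cell list, 9 were tested between genotypes in CLPs and 0 were called. Their median log2 fold change was -1.17, beside 0.07 over all genes. Against that direction, 3 genes of the list were higher in part of the labelled Tet2-/- libraries. Vpreb1, a surrogate light chain gene, had no count in WT and 88.3, 0.0782, 0 and 13.9 CPM in labelled Tet2-/- libraries, and Pax5, the B cell commitment factor gene, had no count in WT and 23.5, 0.599, 0.119 and 3.55 CPM. Igll1, another surrogate light chain gene, was at 0 to 0.0749 CPM in WT and at 113.1, 0, 6.94 and 62.1 CPM. Replicates 2 and 5, the highest for these 3 genes, were also the highest for Rag1. As a percent of counts, the 7 genes of the sorting gates were higher in every labelled Tet2-/- library (0.0832% to 0.185%) than in any WT library (0.0608% to 0.0789%). Their summed CPM overlapped, at 965 to 1750 against 917 to 1378 in WT. Il7r, 1 of the 7, was below every WT library in 3 of the 4 labelled Tet2-/- libraries. The shares of the granulocyte-macrophage, stem cell, T and NK cell, plasma cell, and erythroid and megakaryocyte lists overlapped. The part of these cells in the Bcl11a and Rag1 values was not tested.

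Rag1 in CLPs averaged 7.74 ± 8.69 CPM (SD, n = 4) in the labelled Tet2-/- libraries against 0 counts in all 4 WT libraries. Set against the floor of 3 counts per WT library, the mean was at least 107-fold higher. Without labelled Tet2-/- replicate 5 the mean was 3.88 CPM and the bound 53.5-fold, and replicate 4 was itself at 3 counts. With values of at most 3 counts set to 0, the exact permutation p was 0.143. In the fit of all 46 libraries Rag1 passed the low-count filter only through the labelled Tet2-/- CLP libraries, the group where it was high, so its values in that fit are not used.

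Ikzf3 in CLPs had a log2 fold change of -1.47 with an SE of 0.445 (edgeR adjusted p = 1.0, unadjusted p = 0.00934), and 1 WT library lay within the labelled Tet2-/- range. Over the 15 alternatives its log2 fold change ran from -1.78 to -1.15, and it was called in 0 of them. Dntt was at 474.1, 131.1, 949.5 and 1655 CPM in labelled Tet2-/- CLPs, which spans the 3 WT values of 384 to 662 CPM. Its log2 fold change was 1.12 (SE 1.29) and that of Flt3 0.96 (SE 1.42), Rag2 1.02 (SE 1.83), Notch1 0.11 (SE 0.759), Ikzf2 0.24 (SE 0.626), Ikzf1 0.29 (SE 0.561) and Il7r -0.14 (SE 0.525), each with an edgeR adjusted p of 1.0. Without the 2 libraries that stood apart, the log2 fold changes were 0.89 for Dntt, 0.84 for Flt3, 0.55 for Rag2 and -0.83 for Il7r. Those of Ikzf1, Ikzf2 and Notch1 then turned to -0.41, -0.44 and -0.19, and none of these was called.

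**Figure D4:**
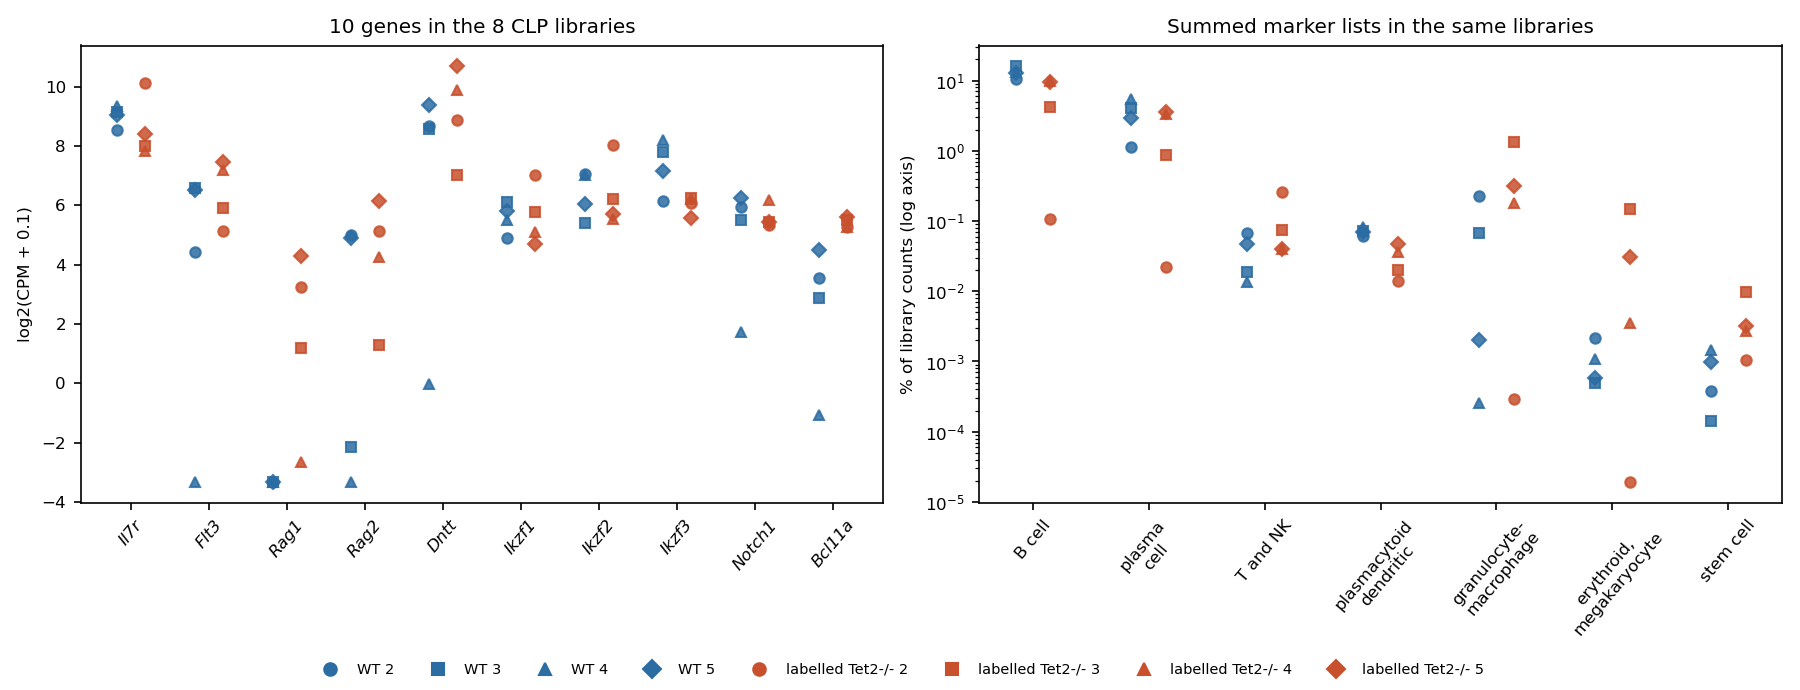
The 8 CLP libraries, blue for WT and red for labelled Tet2-/-, with 1 symbol per replicate number. Left, log2 of CPM plus 0.1 of each gene; right, summed counts of each marker list as a percent of the library's counts on a log axis. Bcl11a lies at 38.7 to 49.1 CPM in the labelled Tet2-/- libraries and at 0.377 to 22.7 CPM in WT, and WT replicate 4 is lowest for Flt3, Dntt, Notch1 and Bcl11a.

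Other genes of these pathways were read from lists, against 4.57% of all genes called in CMPs, 4.38% in GMPs and 4.36% in MEPs. Of 14 genes of IL-7 and FLT3 signalling tested in GMPs, 1 was called, Pim1, a kinase gene induced by STAT5, which fell in GMPs (log2 fold change -2.90, SE 0.466, edgeR adjusted p = 0.00265). Of 24 Notch pathway genes, 17 were tested in CMPs and 16 in MEPs, and 1 was called in each, Hes1, a Notch target, which fell in CMPs (-3.03, SE 0.450, adjusted p = 0.00342) and MEPs (-2.22, SE 0.487, adjusted p = 0.0282). Its level was 0.956 ± 0.504 against 7.75 ± 2.18 CPM in CMPs (SD, n = 4 each). None of the 13 genes of end joining was called in any population, and of 15 Ikaros family and NuRD genes tested in GMPs 1, Hdac2, a histone deacetylase, fell there (-1.64, SE 0.209, adjusted p = 0.000478).

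Of 31 other early lymphoid genes, 24 were tested in CMPs, 27 in GMPs and 24 in MEPs, and 0 rose and 3 fell in each. Over all genes, 629 of 734 calls in CMPs, 674 of 725 in GMPs and 629 of 651 in MEPs were lower as well. None of the list was called in LT-HSCs, ST-HSCs or CLPs by edgeR. Spi1, the gene of PU.1, fell in all 3, from 102.7 ± 12.5 to 12.3 ± 2.89 CPM in CMPs (log2 fold change -3.08, SE 0.191, edgeR adjusted p = 2.89e-05), from 207.2 ± 29.7 to 34.8 ± 1.80 CPM in GMPs (-2.61, adjusted p = 1.19e-06) and from 7.78 ± 0.469 to 0.687 ± 0.363 CPM in MEPs (SD, n = 4 per group). Hhex, a homeobox factor of early lymphoid progenitors, fell in the same 3 populations, by 1.14, 1.93 and 1.0 on the log2 scale. Cnn3 fell in CMPs and GMPs and Tcf12, an E protein gene, in MEPs (-1.63, SE 0.310, adjusted p = 0.0137). The median log2 fold change of this list was -0.21 in CMPs, -0.10 in GMPs and -0.05 in MEPs, beside 0.03 to 0.05 over all genes. Marker lists of other cells moved in the same populations. The B cell sum in CMPs was 162.7 to 236.3 CPM in WT and 104.7 to 123.1 CPM in labelled Tet2-/- libraries, where Ighm fell (log2 fold change -1.03, edgeR adjusted p = 0.00389). The plasma cell sums did not overlap in CMPs (63.9 to 109.3 against 9.95 to 29.3 CPM), GMPs (119.6 to 150.8 against 18.6 to 36.1) or MEPs (45.2 to 111.5 against 1.51 to 26.1). In CMPs and GMPs most of the sum was 1 gene, Xbp1, a secretory pathway factor gene. It fell from a mean of 72.1 to 19.05 CPM in CMPs (log2 fold change -1.94) and from 124.5 to 18.8 CPM in GMPs (-2.76). Mzb1, Prdm1, Irf4 and Tnfrsf17 of that list stayed under 1 CPM in every CMP and GMP library. The erythroid and megakaryocyte sum in CMPs was 976 to 2031 CPM in WT and 3617 to 6833 CPM in labelled Tet2-/- libraries, without overlap, whereas the sums in GMPs and MEPs overlapped. In GMPs the stem cell sum (15.5 to 20.6 CPM in WT against 22.9 to 32.1) and the sorting gate sum (1153 to 1259 against 1281 to 1480 CPM) did not overlap, and Itga2b, a megakaryocyte integrin gene, rose (log2 fold change 1.12, edgeR adjusted p = 0.0179). In CMPs 2 of the 9 markers rose and 2 fell, among them Car1, a carbonic anhydrase gene of erythroid progenitors (log2 fold change 2.03), Klf1, an erythroid transcription factor gene (-1.51), and the platelet glycoprotein gene Gp1bb (-4.25). In MEPs 0 rose and 3 fell, Klf1 (-3.13), Gp1bb (-4.86) and the globin gene Hba-a1 (-1.38). Their part in these results and in the CMP values of Flt3 and Ikzf2 was not tested. By the test of the difference, the effects on Spi1 (1.95, SE 0.552, adjusted p = 0.0260) and Hhex (2.37, SE 0.701, adjusted p = 0.0350) in CLPs were higher than the mean of the other 5 populations, 2 of 31 genes where 5.38% of all genes were called. In the same test 1 of 23 Notch pathway genes, Notch3, was called lower in CLPs (adjusted p = 0.0436), and Spi1 was lower in MEPs (-2.52, adjusted p = 0.0212).

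The same lists were read between WT populations. Genes that may have passed the low-count filter only through CLPs, as Ikzf3 did, were not left out here. Blk, for example, was at 20.6 CPM in CLPs and at 0 in ST-HSCs. The counts and medians of these lists are therefore descriptions. In CLPs against ST-HSCs, where 24.5% of all genes were called, 15 of 31 other early lymphoid genes were called higher and 4 lower, with a median log2 fold change of 1.08, and 7 of 14 IL-7 and FLT3 signalling genes were higher and 0 lower (median 1.62). Bcl2, the survival gene downstream of IL-7, was at 193.5 ± 62.7 CPM in CLPs (SD, n = 4) and 31.1 ± 10.9 CPM in ST-HSCs (SD, n = 3; log2 fold change 2.62, SE 0.319, edgeR adjusted p = 4.98e-06). Il2rg, the partner chain of the IL-7 receptor, was at 745.8 ± 145.9 CPM in CLPs (SD, n = 4) and 296.4 ± 79.6 CPM in ST-HSCs (SD, n = 3). In CMPs it was at 85.4 ± 12.7 CPM (SD, n = 4). For CLPs against CMPs, where 20.3% of all genes were called, its log2 fold change was 3.11 (SE 0.238, edgeR adjusted p = 3.42e-08). Ly6d, a marker of B-biased lymphoid progenitors that is also on the plasmacytoid dendritic cell list, was at 879.4 ± 268.4 CPM in CLPs and 0.423 ± 0.614 CPM in ST-HSCs. In these WT CLP libraries B cell markers took 10.4% to 15.96% of counts and plasma cell markers 1.12% to 5.49%. The part of such cells in these levels was not tested. Of 23 Notch pathway genes tested, 4 were called higher and 3 lower in CLPs against ST-HSCs, and of 13 end joining genes 1, Xrcc4, was lower (-1.03, SE 0.319, adjusted p = 0.0217).

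The second table gave LT-HSC libraries labelled WT, Sting-/- and DKO, names that stand for the labels here, scaled on its own. Il7r, Rag1 and Ikzf3 were at 0 in all 9 libraries, Rag2 had at most 2 counts and Dntt at most 10 counts. Flt3 was at 0.179, 22.7 and 26.4 CPM in WT, at 24.9, 3.91 and 41.2 in Sting-/- and at 1.01, 0.614 and 6.19 in DKO. Notch1 was at 1.38, 0 and 3.05 CPM in WT, at 1.27, 4.80 and 0.421 in Sting-/- and at 18.5, 0 and 23.6 in DKO. Both genes varied widely within each genotype, and the genotypes overlapped.

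Bcl11a, Ikzf1 and Ikzf2 were found in all 9 libraries. Bcl11a ranged from 11.4 to 99.3 CPM, Ikzf1 from 23.4 to 152.1 CPM and Ikzf2 from 7.58 to 49.3 CPM, and the ranges of the 3 genotypes overlapped. None of the 5 tested members was called by edgeR in DKO against WT (0.657% of all genes called), Sting-/- against WT (0.0%) or DKO against Sting-/- (0.159%), and DESeq2 called 0. At an unadjusted p under 0.05 there were 0 members in each, against 1288 of 9743, 469 of 9967 and 783 of 9435 genes. Flt3 in DKO against WT had a log2 fold change of -2.72 with an SE of 2.36 (edgeR adjusted p = 0.811) and Notch1 3.16 (SE 3.10, adjusted p = 0.859). With 3 against 3 libraries an exact permutation p cannot go below 0.10. Libraries of a group correlated with each other at a mean r of 0.532 to 0.590.

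Levels of the Sting gene did not follow the labels in part of these libraries. A count over a whole gene does not show whether Tet2 or Sting was disrupted in a library. By Western blot, the paper reports loss of STING protein in marrow cells of Sting-/- and DKO mice. Tet2 was at 25.0, 0 and 0 CPM in WT, at 9.45, 41.5 and 1.47 CPM in Sting-/- and at 1.29 to 42.4 CPM in the 3 DKO libraries. Tmem173, the Sting gene, was at 45.8, 34.4 and 0 CPM in WT, at 120.2, 0 and 62.1 CPM in Sting-/- and at 0, 0.195 and 25.9 CPM in DKO. Xist was at 90.7 to 242.6 CPM in WT and the Y-linked Eif2s3y at 153.3 to 322.1 CPM in the 6 Sting-/- and DKO libraries, against at most 0.236 CPM in WT. In the comparisons with WT of the second table, sex and genotype cannot be told apart, whereas the DKO and Sting-/- libraries all held Eif2s3y.

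**Figure D5:**
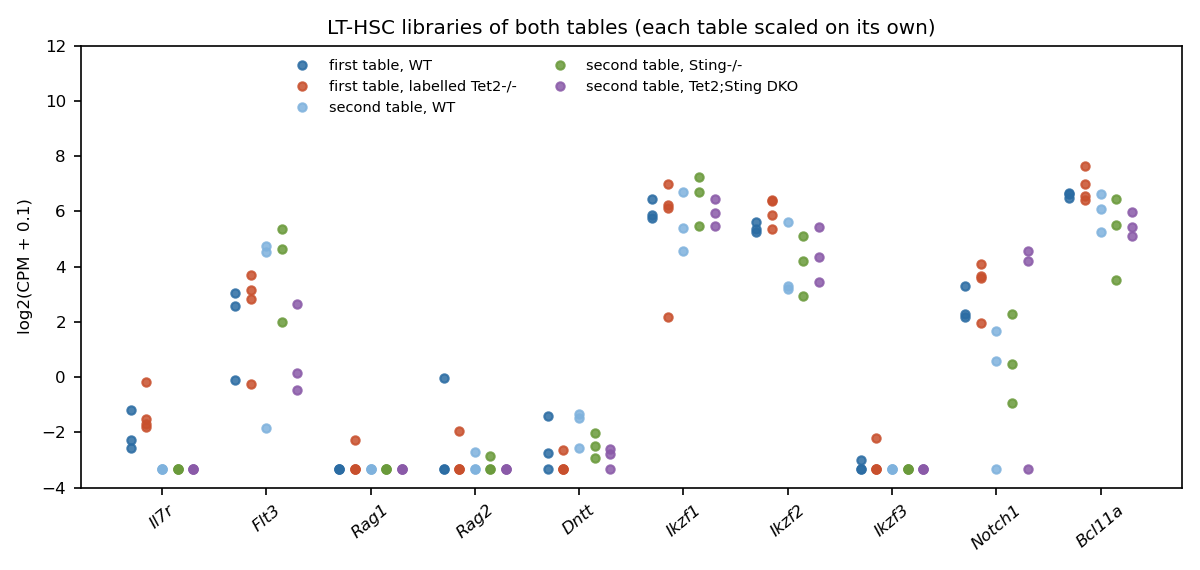
Log2 of CPM plus 0.1 of each gene in the 16 LT-HSC libraries of both tables, each table scaled on its own, with 1 point per library and 1 colour per group. Rag1, Rag2, Dntt and Ikzf3 lie at or below 0.876 CPM in all 16 libraries.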

How the data were processed

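Per the labels, bulk RNA-seq libraries of 200 sorted cells (about 300 by the methods) were made with a full-length SMART-seq kit. The deposited values are counts, raw reads per gene for each library, made by the authors, beside a gene length in bases that served here only for CPM per kb. The submitters' processing notes list Trim Galore 0.6.7, HISAT2 7.5.0, DESeq2 and the builds mm10 and mm9. The methods name mm10 and other versions of Trim Galore and HISAT2. The counting program and its use of strand are not given in the sources used here. From the second table, 2 broken lines and 2 repeated symbols were left out, and 0 columns lacked a sample.

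Groups came from the sample labels, and each label was taken as 1 replicate. Counts were filtered with filterByExpr, scaled with TMM and tested with the quasi-likelihood test of edgeR 4.0.16 in R 4.3.3. Genotypes were compared in a fit of 1 population, WT populations in a fit of all WT libraries, and the effect of genotype in 1 population against the mean of the other 5 in a fit of all 46 libraries. P-values were adjusted by Benjamini-Hochberg over all genes tested, and calls needed an adjusted p under 0.05 and a change of 2-fold or more. CPM used TMM library sizes, so CPM and percent of raw counts differ in scale. Exact permutation tests (scipy 1.17.1) were two-sided on differences of mean log2 CPM (prior count 2). Total counts ran from 26775681 to 102148079, and intervals and floors (3 counts per library) cover counting error only.

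All 10 members are named. Genes named from the pathway lists are among the 3 called genes of largest change per list and comparison, and not all of those are named. Up to 3 genes most alike are given per member, and none for Rag1. Members and lists were chosen with earlier results of these data known. Locations came from GENCODE vM21 on mm10 and promoter windows from RefSeq on GRCm38.p6. The alternatives were DESeq2 1.42.0, no low-count filter, RLE scaling, all libraries of a table in 1 fit, a replicate block and leaving out each library. Chosen after seeing the data were leaving out 2 CLP libraries, library sizes without Ighm, the counts of members without Il7r and Ikzf3, the Rag1 bound without single libraries, and permutation tests with values of at most 3 counts set to 0. The code was tested on simulated data.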

Additional observations from a re-analysis of the deposited data

Results flagged for a closer look

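Of 69 groups of 4 libraries in which a member reached 1 CPM in at least 1 library (a limit set after the values were seen), 8 held a library far from the other 3. A chance rate of about 1 in 20 would need independent groups. WT CLP replicate 4 and labelled Tet2-/- GMP replicate 4 were each flagged for more than 1 member. An excess over chance was not tested. In CLPs of WT, replicate 4 had Dntt at 0.879 CPM against 384.1 to 662.5 CPM in the others. The same library had Notch1 at 3.20 CPM against 45.1 to 76.2 CPM. In CLPs labelled Tet2-/-, replicate 4 had Notch1 at 73.2 CPM against 40.6 to 43.3 CPM.

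In ST-HSCs labelled Tet2-/-, replicate 2 had Flt3 at 136.7 CPM against 66.0 to 73.9 CPM. In CMPs labelled Tet2-/-, Rag2 was at 3.53 CPM in replicate 5 and at 0 in the other 3. Among GMPs labelled Tet2-/-, replicate 4 was low for Rag2 (1.70 against 2.51 to 2.66 CPM) and for Ikzf1 (24.8 against 52.3 to 60.3 CPM). Replicate 4 of MEPs labelled Tet2-/- had Ikzf2 at 9.99 CPM against 19.4 to 21.9 CPM.

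The effect of genotype on Bcl11a differed between CLPs and the mean of the other 5 populations by 2.04 on the log2 scale (SE 0.478, edgeR adjusted p = 0.00639), where 4 of 4 labelled Tet2-/- CLP libraries were above all 4 WT libraries. In that test 5.38% of 22360 genes were called. In the fit of CLPs alone Bcl11a was not called (SE 0.961). The share of all genes without overlap in CLPs is not given here. The part of other cell types in that difference was not tested.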

How the results depend on the processing

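Members called kept their number within 1.5 times under the alternatives, except for the following. In 1 fit of all 46 libraries, 2 members were called between genotypes in CLPs (Bcl11a, and Rag1, which passed the filter only through its high group) and 0 between CMPs and ST-HSCs. With DESeq2, 5 were called in CLPs against CMPs, 3 in LT-HSCs against ST-HSCs and 2 for the effect in CLPs (the same 2 genes). Leaving out each library gave 0 to 1 member between genotypes in CMPs and 0 in the other populations, 5 to 6 in CLPs against LT-HSCs, 3 to 4 against ST-HSCs, 3 to 5 against CMPs, 5 against GMPs, 8 to 9 against MEPs, 0 to 1 in CMPs against ST-HSCs and 1 for the effect in CLPs. The cause was not tested. No member's called value changed sign. For the effects in single populations, leaving out was run for the 8 CLP libraries only.

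Same-numbered libraries had correlations of deviations of -0.0851 to 0.0736, none over 0.1. Between WT populations the median was 0.0219 for same-numbered libraries and -0.0086 for the others. The labels do not say whether same-numbered libraries came from the same mouse, and correlations this small cannot decide it. With the replicate block, the number of members called did not change in any comparison, and the Bcl11a effect in CLPs was 2.16 (edgeR adjusted p = 0.00419). The block moved all calls from 4 to 2 in LT-HSCs, from 1 to 0 in CLPs, from 64 to 26 in DKO against WT and from 15 to 0 in DKO against Sting-/-.

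Counts over all genes moved more. edgeR called 4, 3, 734, 725, 651 and 1 between genotypes in LT-HSCs, ST-HSCs, CMPs, GMPs, MEPs and CLPs, 35 in LT-HSCs against ST-HSCs, 1001 in CMPs against ST-HSCs, and 31, 22, 19, 55, 115 and 1204 for the effects in single populations. DESeq2 called 145 genes between genotypes in LT-HSCs, 187 in ST-HSCs and 119 in CLPs, 752 in LT-HSCs against ST-HSCs, 2141 in CMPs against ST-HSCs, and 1218, 1309, 1052, 735, 1452 and 3125 for the effects, in the same order. In the second table it called 829 in DKO against WT, 262 in Sting-/- against WT and 637 in DKO against Sting-/-, where edgeR called 64, 0 (469 at an unadjusted p under 0.05) and 15. One fit of all libraries called 20, 21, 285, 219, 423 and 1477 between genotypes in that order, 21 in LT-HSCs against ST-HSCs, and 123, 1 and 75 in the second table. With no low-count filter there were 10, 13 and 10 for the effects in LT-HSCs, ST-HSCs and CMPs, 105 in DKO against WT and 47 in DKO against Sting-/-. Without the 2 CLP libraries that stood apart, 0 genes were called between genotypes in CLPs by edgeR, with 579 at an unadjusted p under 0.05. Leaving out each library of the second table gave 2 to 41 calls in DKO against WT and 0 in DKO against Sting-/-, and in the first it gave 0 to 1 between genotypes in CLPs, 18 to 32 in LT-HSCs against ST-HSCs and 640 to 832 in CMPs against ST-HSCs.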
